A study of Danio rerio with 2 samples.

Results

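The Hox genes were taken as every gene whose symbol starts with hox, a cluster letter from a to d and a number. This gave 48 of the 25743 genes in the gene list, spread over 7 Hox clusters (hoxaa, hoxab, hoxba, hoxbb, hoxca, hoxcb and hoxda). The number in each symbol is the paralog group, from 1 to 13. The 48 genes were counted in GFP-positive cells that had been sorted by flow cytometry from whole zebrafish embryos at the 20-somite stage. All embryos carried etv2ci32Gt, a Gal4 insertion in the coding sequence of etv2, together with a UAS:GFP reporter. One genotype was heterozygous, with 1 intact copy of etv2, and the other was homozygous, with etv2 function lost. GFP in this line reports etv2 in cells that express it or descend from cells that did. Embryos were pooled, and there was 1 Chromium library per genotype. The sorted cells also included cells with neural and epidermal markers, and whether these had expressed etv2 was not tested. With no replicate there is no test between genotypes or classes. The 95% intervals below cover counting error only. They are exact, except those of mean paralog numbers, which are normal approximations.

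Hox genes encode homeodomain transcription factors that tell cells where they lie between head and tail. Within each cluster the genes are arranged in the order of their use along the body axis: low-numbered groups act in the hindbrain and anterior trunk, the middle groups in the trunk, and the highest groups in the posterior trunk and tail. Hox proteins bind DNA together with Pbx and Meis cofactors, retinoic acid acts mainly on the anterior genes, and Cdx factors act on the central and posterior ones. The foremost head, including forebrain and midbrain, is known to lack Hox expression.

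Expression was measured as UMIs, molecular tags that each count 1 captured mRNA at its 3' end, and is given as counts per 1000000 UMIs (CPM). Barcodes were kept with no fewer than 2500 UMIs, a gene number above 200 and up to 3500, and a mitochondrial share of up to 5%. This left 1608 heterozygous cells with 16913592 UMIs and 473 homozygous cells with 6277215 UMIs, with a median of 10036.5 and 13079 UMIs per cell. No barcode was shared by the kept cells of the libraries. The trapped gene etv2 held 4908 UMIs or 290 CPM in heterozygous cells and 95 UMIs or 15.13 CPM in homozygous cells, a ratio of 0.0522 (0.0421 to 0.0639). Classes were named from clusters by their markers, with Hox genes left out of the clustering, and are called by the class they resemble, as tailbud-like. Although the labels call the sorted cells endothelial, endothelial-like cells were 23.3% of heterozygous and 0.211% of homozygous cells. Free RNA made up an estimated 4.31% and 2.02% of UMIs per cell. Since empty droplets held 249 and 265 Hox CPM, 10.7 and 5.36 Hox CPM are expected on average from free RNA in cells that lack Hox mRNA.

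The kept cells held 5054 heterozygous Hox UMIs, or 299 CPM (291 to 307), and 2147 homozygous ones, or 342 CPM (328 to 357). Of the 48 genes, a UMI was seen for 45 among heterozygous and for 44 among homozygous cells. A total of 31 heterozygous and 24 homozygous genes reached 20 UMIs, and the 31 include all that did so in either library. The gene hoxb7a, the single member of group 7 in the list, had the most, with 797 heterozygous and 316 homozygous UMIs. The next in the heterozygous library were hoxa11b with 405, hoxd9a with 323, hoxc3a with 317 and hoxb9a with 249. A single gene also dominated several other groups over both libraries: hoxd12a held 97.3% of group 12, hoxa4a 84.1% of group 4, hoxb1b 73.4% of group 1 and hoxa11b 67.1% of group 11. At the other end, hoxb13a had no UMI, and hoxa1a, hoxa5a, hoxb4a and hoxc4a had 1 or 2 in total. Among the genes below 20 UMIs in both libraries, the posterior genes hoxd13a (15 and 10) and hoxa13a (13 and 17) had the most. The hoxba cluster held the largest share of Hox UMIs, with 40.0% of heterozygous and 36.3% of homozygous ones, and the hoxcb cluster the smallest with 1.37% and 1.35%.

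The assignment of UMIs to 4 genes is uncertain. In the RefSeq models of a later genome assembly, hoxc3a spans 5 other Hox genes (hoxc9a, hoxc8a, hoxc6a, hoxc5a and hoxc4a), hoxb3a spans 3 (hoxb6a, hoxb5a and hoxb4a), hoxb1b spans hoxb6b and hoxb5b, and hoxd3a spans hoxd4a. The annotation behind the counts was not given in the sources used here. The levels of hoxc3a over 16 class and library points correlated more closely with groups 9 to 13 (r = 0.95) than with the rest of groups 1 to 4 (r = 0.69). The other way round, hoxb3a was closer to groups 1 to 4 (r = 0.88) than to groups 9 to 13 (r = 0.59). So was hoxb1b (r = 0.86 and 0.59), and hoxd3a was not among the genes correlated. The 16 points share libraries and depth, so the values are descriptions. Mean paralog numbers are therefore also given without the 4 genes, while the shares and ratios of paralog bands include them.

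Hox expression was concentrated in tailbud-like cells, the class marked by the mesoderm genes msgn1, tbx16 and ta, which form the growing posterior end of the embryo. They were 39 heterozygous and 27 homozygous cells, 2.43% and 5.71% of each library, and held 24.6% and 56.9% of its Hox UMIs. Their Hox level was 3406 CPM (3220 to 3601) for heterozygous and 3571 CPM (3373 to 3777) for homozygous cells. All other heterozygous cells together had 230 CPM, a ratio of 14.8 (13.9 to 15.8), and all other homozygous cells 156 CPM, a ratio of 22.9 (21.0 to 24.98). Among genes with at least 20 UMIs, 30 of 31 Hox genes were at least 2-fold higher in heterozygous tailbud-like cells, where 16.1% of 10908 genes were. In homozygous cells this held for 24 of 24 Hox genes against 14.7% of 8383 genes. The median log2 ratio of the Hox genes was 3.84 and 4.72, where that of all genes was 0.38 and 0.16.

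**Figure D1:**
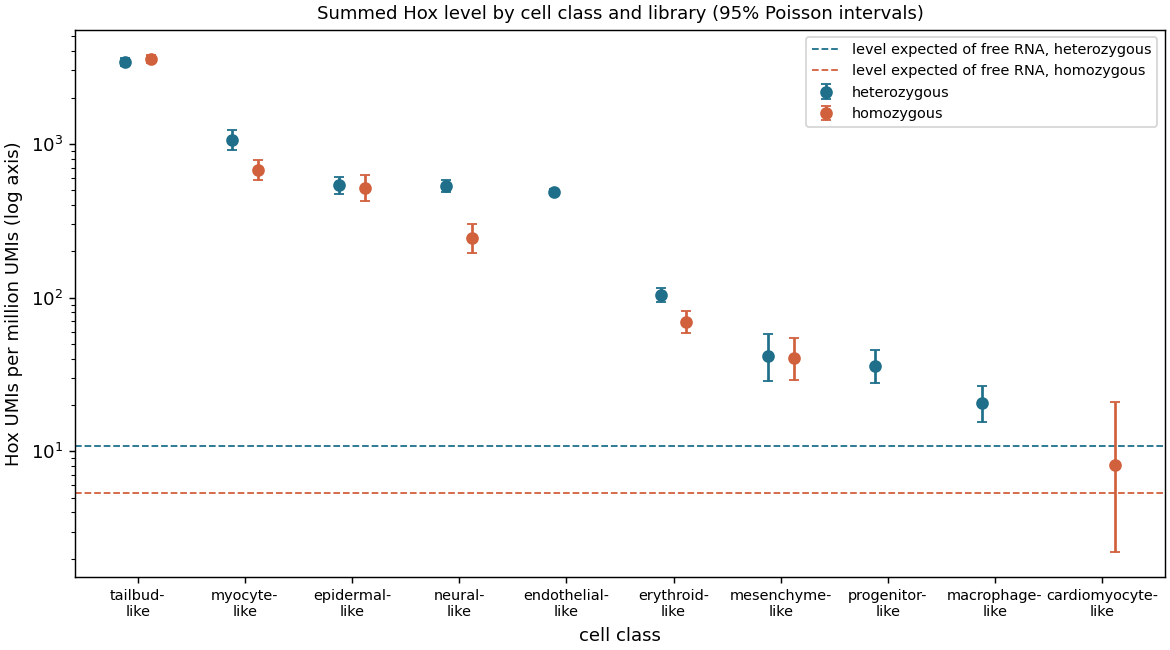
Summed Hox level in CPM (log axis) in each class of at least 20 cells of the heterozygous and homozygous libraries, with exact 95% counting intervals and the level expected from free RNA as dashed lines. Tailbud-like cells stand at 3406 and 3571 CPM, and no other class passes the 1063 CPM of heterozygous myocyte-like cells.

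The ratio increased with the paralog group. In heterozygous cells groups 1 to 4 were 8.86-fold (7.57 to 10.3), groups 5 to 8 9.72-fold (8.53 to 11.1) and groups 9 to 13 23.7-fold (21.6 to 25.8) above the other cells. The homozygous ratios were 12.6 (10.4 to 15.3), 16.3 (13.9 to 19.2) and 36.2 (31.8 to 41.1). The intervals of groups 9 to 13 lie above those of both lower bands in each library, while those of the lower bands overlap. The gene with the largest ratio in both was hoxd12a, a late posterior gene of the tail, with 38 UMIs in 39 tailbud-like against 19 UMIs in 1569 other heterozygous cells (90.5-fold, 50.9 to 166) and 75 against 12 UMIs in homozygous cells (108-fold, 58.5 to 219). It was followed in heterozygous cells by hoxc11a at 55.2-fold, hoxc10a at 51.7-fold and hoxa9b at 32.5-fold, and the same 3 genes were next in homozygous cells at 63.6-fold, 65.9-fold and 85.1-fold. The lowest ratio in both was that of hoxb1b, a hindbrain gene, with 4 UMIs in heterozygous and 9 UMIs in homozygous tailbud-like cells and ratios of 1.24 and 4.59.

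By absolute level, tailbud-like cells were led by hoxb7a at 468 CPM (400 to 543) and hoxa11b at 378 CPM (317 to 446) in the heterozygous library and by hoxb7a at 456 CPM in the homozygous one. Groups 9 to 13 held 60.9% (58.1 to 63.6) and 60.6% (57.8 to 63.3) of their Hox UMIs, groups 5 to 8 held 23.1% and 24.1%, and groups 1 to 4 held 15.98% and 15.3%. Group 3 made up most of the anterior share with 12.5% and 10.7%, and hoxc3a, whose model spans 5 others, held 69.2% and 62.6% of that group. The mean paralog number over Hox UMIs was 8.21 (8.05 to 8.37) and 8.23 (8.07 to 8.39), and 8.99 and 8.92 without the 4 spanning genes.

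Single tailbud-like cells used many Hox genes at once. In the heterozygous cells the lowest, median and highest cell had 0, 28 and 91 Hox UMIs of 0, 13 and 24 genes. In the homozygous cells these were 11, 37 and 120 UMIs of 6, 15 and 29 genes. After thinning each cell to 5000 UMIs, which leaves out shallower cells, 28 of 34 heterozygous and 23 of 26 homozygous cells had a UMI of groups 9 to 13. Of these 28 heterozygous cells, 28 also had a UMI of groups 5 to 8 and 26 one of groups 1 to 4, and of the 23 homozygous cells 21 and 20 did. Posterior genes were counted together with the lower groups in these cells, but group 3 includes hoxc3a, whose model spans 5 others. Before thinning, group 3 was found in 31 of 39 heterozygous and 26 of 27 homozygous cells. Groups 1, 2 and 4 were found in 6, 12 and 7 heterozygous and in 9, 11 and 16 homozygous cells. The counts per cell were not repeated without the 4 spanning genes.

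The tailbud-like cluster was not uniform. In it, 7 of 39 heterozygous cells had no Hox UMI, and these 7 also had no UMI of ta, tbx16, msgn1, cdx4, her1 or her7, while their median depth was 8274 UMIs against 10765 in the other 32. In all, 10 heterozygous cells with 72 Hox UMIs and 3 homozygous cells with 114 Hox UMIs lacked these 6 markers. Without them the heterozygous level was 4032 CPM, its ratio over other cells 17.5 and the homozygous level 3683 CPM. The homozygous cells also held 28 UMIs of noto, a notochord gene, where the heterozygous ones held none.

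**Figure D2:**
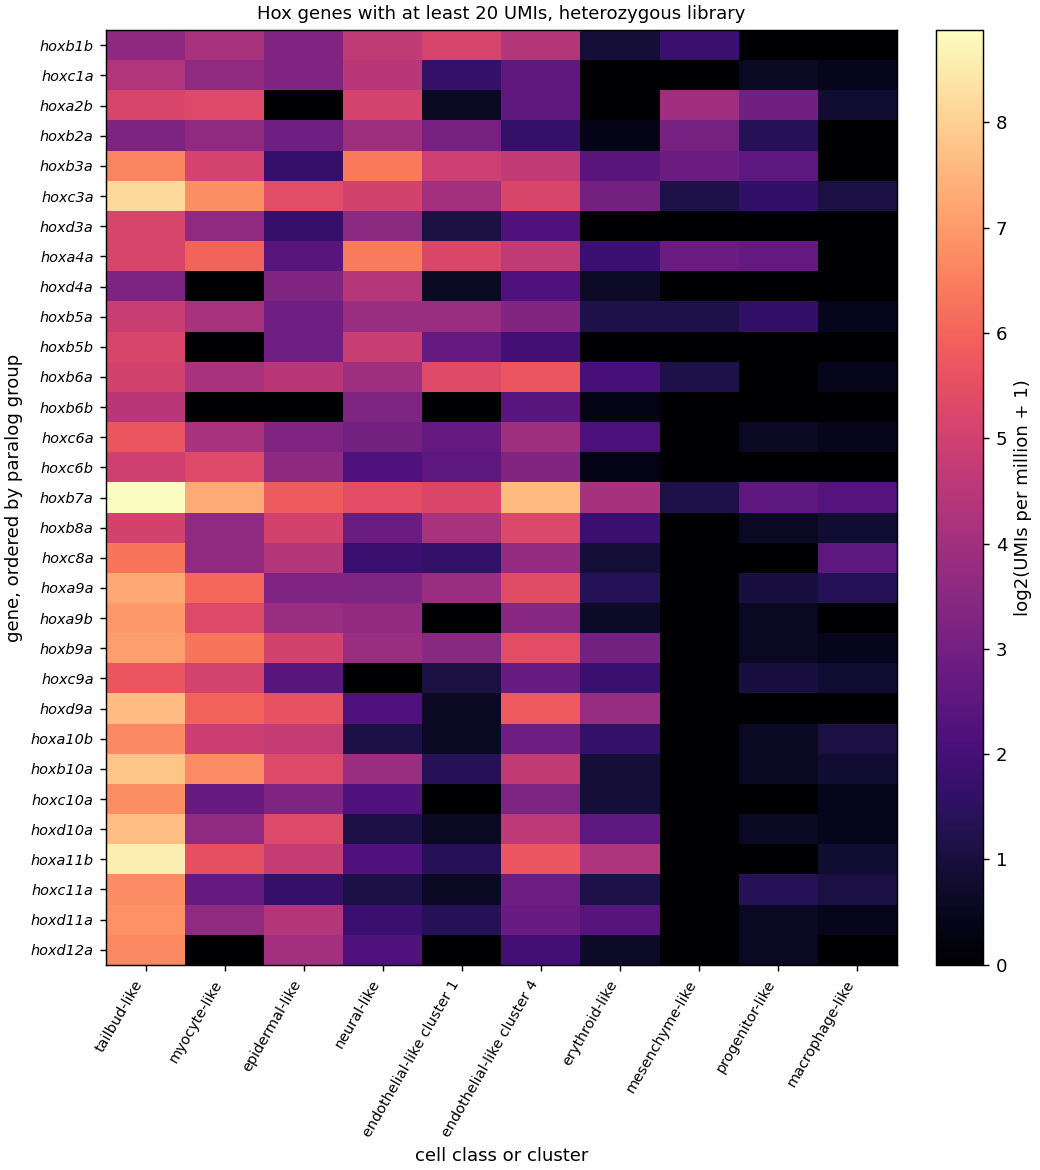
Level of each Hox gene with at least 20 UMIs in log2(CPM + 1) by class or cluster in the heterozygous library, genes ordered by paralog group. Bright colours are high levels. The tailbud-like column is bright over nearly all groups, with hoxb7a at 468 CPM, while the neural-like column is brightest for hoxa4a and hoxb3a.

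Endothelial-like cells, which form the lining of vessels, carried trunk Hox genes. This class had 375 heterozygous cells and only 1 homozygous cell, so its values are heterozygous. Its Hox level was 485 CPM (461 to 509), 1.91-fold (1.80 to 2.03) that of other heterozygous cells. This excess depended on which clusters made up the class. At resolution 0.6 the class held 201 cells at 286 CPM, below the 299 CPM of all kept heterozygous cells. Its level was also lower without a UMI minimum, and the ratio was not recomputed under the alternatives. In the main run groups 5 to 8 held 44.5% (42.0 to 47.0) of the Hox UMIs of the class and were 3.19-fold above other cells. Groups 1 to 4 were 2.16-fold and groups 9 to 13 1.11-fold (1.002 to 1.23) above. The leading gene was hoxb7a with 340 UMIs, at 104 CPM against 33.5 CPM in other cells. The largest ratios were those of hoxb1b (28.1 against 4.25 CPM, 6.60-fold), hoxb6a (44.0 against 6.75 CPM, 6.51-fold) and hoxb8a (25.9 against 5.79 CPM, 4.48-fold). In all, 10 of 31 Hox genes were at least 2-fold higher, where 11.1% of all genes were, and 4 were at most 0.5-fold, where 18.7% of all genes were. The lowest was hoxd12a with 4 against 53 UMIs. The other cells include the tailbud-like ones, which held most of these 53 UMIs. They also held 758 of the 1743 UMIs of groups 9 to 13 outside the endothelial-like class. Ratios without the tailbud-like cells were not computed. The hoxba cluster supplied 52.7% (50.2 to 55.2) of the Hox UMIs of this class, against 29.9% (27.3 to 32.5) in heterozygous tailbud-like cells.

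Both endothelial-like clusters differed along the axis. Cluster 1 (201 cells), led by hapln3, pecam1 and dll4, had 286 Hox CPM. Cluster 4 (174 heterozygous cells), led by mb, agtr2 and npr3, had 751 CPM, a ratio of 2.63 (2.37 to 2.92). Of 24 endothelial markers, 21 were at least 2-fold above other cells in cluster 1 and 18 in cluster 4. At resolution 0.6 the endothelial-like class held 201 heterozygous cells at 286 CPM, the number and level of cluster 1 alone. The comparison of the clusters was not repeated under the alternatives. Groups 1 to 4 were alike in level at 129 and 124 CPM, a ratio of 0.96 (0.79 to 1.17). Groups 5 to 8 were 2.72-fold (2.32 to 3.197) and groups 9 to 13 8.88-fold (6.77 to 11.8) higher in cluster 4. Here hoxd9a had 76 UMIs in cluster 4 and 1 in cluster 1, hoxa11b 72 and 3, hoxd10a 33 and 1 and hoxb7a 272 and 68. In the other direction hoxb1b was at 20.0 and 34.1 CPM, a ratio of 0.59 (0.36 to 0.93), and hoxa4a at 24.3 and 36.8 CPM, a ratio of 0.66 (0.42 to 1.01). Of 17 Hox genes 11 were at least 2-fold higher in cluster 4 and 0 at most 0.5-fold, where 16.1% of all genes passed either limit. The mean paralog number was 7.28 in cluster 4 and 5.07 in cluster 1, and 7.88 and 6.21 without the 4 spanning genes. Cells with a Hox UMI were 80.7% (72.1 to 87.7) of cluster 4 and 34.9% (27.8 to 42.4) of cluster 1 after thinning. Before thinning they were 65.5% and 38.3%, at median depths of 6430.5 and 9058 UMIs. Thinning left out the shallower cells, 65 of 174 in cluster 4 and 26 of 201 in cluster 1. Thinned to 2500 UMIs, with all cells kept, the shares were 56.3% and 27.4%.

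Of 23 listed regulators with enough UMIs, 2 were at least 2-fold higher in cluster 4 and 5 at most 0.5-fold. The higher ones were aldh1a2, which makes retinoic acid (20.1-fold), and cdx4 (2.09-fold). The lower ones were the receptor rarga at 0.14, the cofactors pbx2 at 0.30 and pbx1a at 0.38, and the hindbrain factors egr2b at 0.32 and gbx2 at 0.44. Over the whole endothelial-like class, the 149 cells with a Hox UMI after thinning held 140 UMIs of cdx4 and the 135 without held 4, a ratio of 27.1 (10.3 to 100.8). The same cells held 31 and 1 UMIs of aldh1a2 and 99 and 26 of raraa, a retinoic acid receptor. By contrast gbx2, known as a factor of the boundary between midbrain and hindbrain, had 115 and 293 UMIs, a ratio of 0.30 (0.24 to 0.38).

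**Figure D3:**
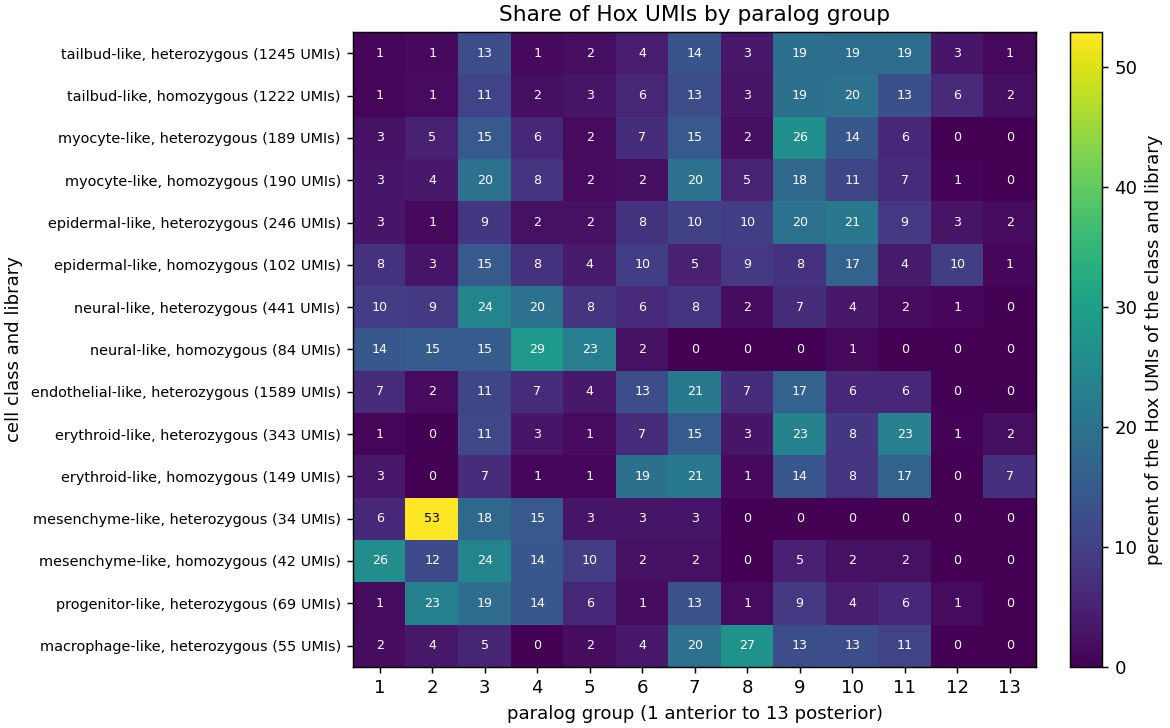
Share of Hox UMIs (percent) that fell into each paralog group from 1 to 13, in each class and library of at least 20 cells. Homozygous cardiomyocyte-like cells, with 4 Hox UMIs, are left out. Groups 9 to 13 take 60.9% and 60.6% in tailbud-like cells, and groups 1 to 4 take 62.4% and 73.8% in neural-like cells.

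Neural-like cells, marked by sox3 and elavl3, were the most anterior of the Hox-rich classes. Their Hox level was 531 CPM (483 to 583) in 81 heterozygous and 244 CPM (195 to 302) in 23 homozygous cells. Groups 1 to 4 held 62.4% and 73.8% of their Hox UMIs, and the mean paralog number was 4.58 (4.33 to 4.82) and 3.45 (3.11 to 3.79), or 5.33 and 3.77 without the spanning genes. Compared with other heterozygous cells, groups 1 to 4 were 5.66-fold (4.93 to 6.48) higher and groups 9 to 13 lower at 0.52 (0.40 to 0.68). Those other cells include the tailbud-like ones, which held 758 of their 2151 UMIs of groups 9 to 13. The ratio without tailbud-like cells was not computed. The genes with the largest ratios were hoxd4a at 14.97-fold (17 against 22 UMIs), hoxb5b at 14.4-fold, hoxc1a at 12.4-fold, and hoxa2b and hoxb6b at 8.47-fold each. The highest levels were those of hoxa4a at 85.5 CPM and hoxb3a at 83.1 CPM. In total 11 of 31 Hox genes were at least 2-fold higher, where 12.3% of all genes were, and 8 (25.8%) were at most 0.5-fold, near the 27.9% of all genes that were. Among these 8 was hoxd10a with 1 against 222 UMIs.

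Hox UMIs split the neural-like cells. After thinning, 28 of 69 heterozygous cells (40.6%, 28.9 to 53.1) and 7 of 23 homozygous cells (30.4%, 13.2 to 52.9) had one, at 40.7% and 34.8% before thinning and 35.5% and 29.0% as the mean over all possible thinning draws. The 28 heterozygous cells held 56 UMIs of egr2b, the hindbrain segment gene also called krox20, and the other 41 cells held 0. The hindbrain gene mafba was counted at 42 and 2 UMIs, cdx4 at 48 and 1, and raraa at 34 and 3. The cofactors meis2b and meis1b were 5.11-fold (2.03 to 15.3) and 2.85-fold (1.57 to 5.39) higher in cells with a Hox UMI. Conversely, otx1b, a forebrain and midbrain gene, was counted at 5 UMIs in the cells with and 40 UMIs in the cells without Hox, a ratio of 0.16 (0.05 to 0.40). In the homozygous library the 7 cells with a Hox UMI held 15 UMIs of egr2b and 25 of meis2b, and the 16 without held 7 and 4.

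Mesenchyme-like cells, marked by twist1a, pitx3 and foxf2a, had little Hox RNA. The level was 41.5 CPM (28.8 to 58.0) in 75 heterozygous and 40.1 CPM (28.9 to 54.3) in 83 homozygous cells. This came from 34 and 42 UMIs, of which 31 and 32 belonged to groups 1 to 4 and 0 and 4 to groups 9 to 13. The mean paralog number was 2.76 and 3.50, or 2.85 and 4.54 without the spanning genes, and the heterozygous value was the lowest of any heterozygous class either way. The most counted genes were hoxa2b with 12 UMIs among heterozygous cells and hoxb1b with 8 UMIs among homozygous ones. In heterozygous cells 29 of 31 Hox genes were at most 0.5-fold of the level elsewhere, tailbud-like cells included. Of all genes 23.8% were, and 22 of the 31 Hox genes had no UMI in the class.

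A few cells carried these UMIs. After thinning, 6 of 69 heterozygous (8.70%) and 8 of 79 homozygous cells (10.1%) had a Hox UMI, and 9.33% and 12.05% did before, at median depths of 10950 and 12701 UMIs. The cofactor meis3 was counted at 15 UMIs in the 6 cells and 5 UMIs in the other 63 (30.3-fold, 10.5 to 106), and at 28 and 15 UMIs in the homozygous library (14.2-fold, 7.35 to 28.7). In both libraries raraa also stood higher in the cells with Hox, 5.04-fold (1.995 to 11.8) and 5.72-fold (2.47 to 12.9), while the class marker pitx3 stood lower at 0.39 (0.17 to 0.79) and 0.28 (0.10 to 0.62). The retinoic acid degrading enzyme cyp26c1 had 0 UMIs in the cells with Hox and 40 and 106 UMIs in those without. These contrasts rest on 6 and 8 cells.

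**Figure D4:**
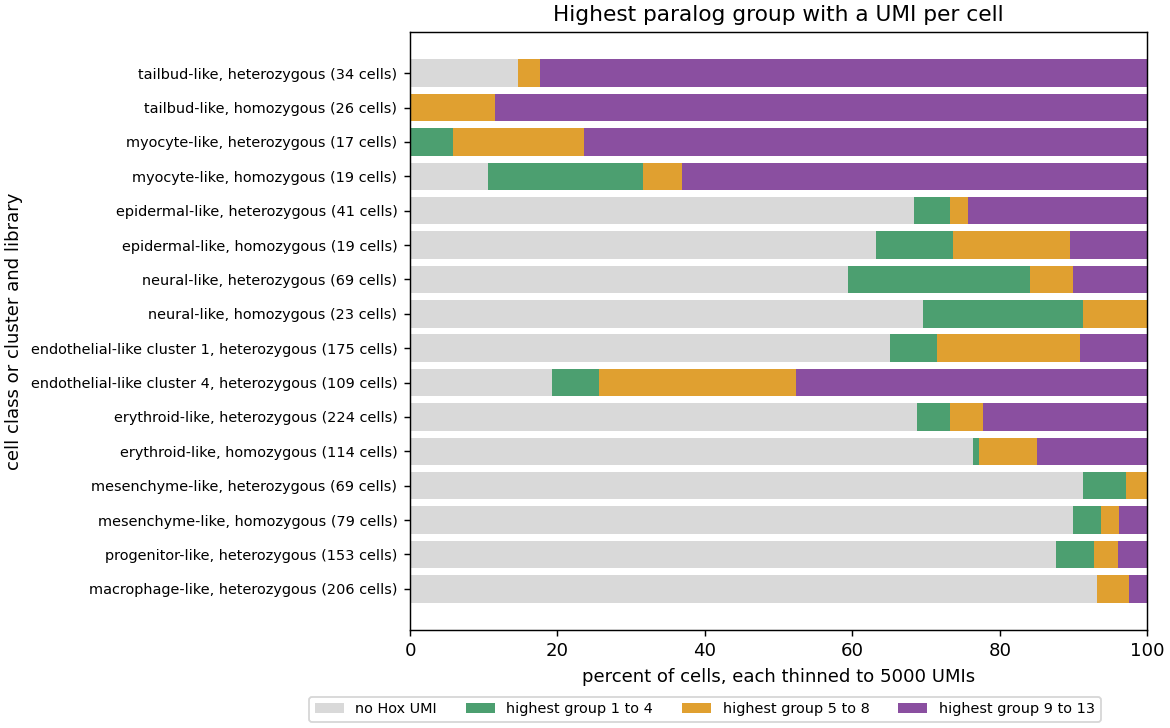
Percent of cells by the highest paralog band with a UMI (none, 1 to 4, 5 to 8 or 9 to 13) after thinning to 5000 UMIs, by class or endothelial-like cluster and library. Groups 9 to 13 are reached by 82.4% and 88.5% of tailbud-like cells. In heterozygous endothelial-like clusters 1 and 4 they are reached by 9.14% of 175 and 47.7% of 109 cells deep enough to thin. No Hox UMI is found in 93.2% of heterozygous macrophage-like cells.

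Progenitor-like cells, marked by tal1 and lmo2, were low as well. Their 182 heterozygous cells had 69 Hox UMIs or 35.9 CPM (28.0 to 45.5), with 58.0% in groups 1 to 4, and hoxa2b led with 13 UMIs. Here 30 of 31 Hox genes were at most 0.5-fold of the level in other heterozygous cells, tailbud-like ones included, against 21.8% of all genes. The median log2 ratio was -2.68 for the Hox genes and -0.11 for all genes. Cells with a Hox UMI were 12.4% (7.64 to 18.7) after thinning and 22.5% before. The homozygous library had 3 such cells with 1 Hox UMI. Of the listed regulators, raraa was 4.201-fold (2.23 to 7.68) higher in the 19 cells with a Hox UMI than in the other 134. The low level did not hold in the run without a UMI minimum, which also used clusters at resolution 1.5. There the class was regrouped to 298 heterozygous cells and stood above endothelial-like cells in Hox level.

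Erythroid-like cells, which make embryonic hemoglobin, had a low level of posterior type. It was 104 CPM (93.3 to 116) in 238 heterozygous and 69.6 CPM (58.9 to 81.8) in 119 homozygous cells. Groups 9 to 13 held 57.4% (52.01 to 62.7) and 46.3% (38.1 to 54.7) of the UMIs, and the mean paralog number of 8.11 and 7.95 was close to that of tailbud-like cells. It was 8.84 and 8.53 without the spanning genes. With all genes, heterozygous epidermal- and macrophage-like cells had similar means of 7.93 and 7.76, while homozygous epidermal-like cells were at 6.83. The leading genes of erythroid-like cells were hoxa11b with 61 UMIs, hoxb7a with 53 and hoxd9a with 41 in the heterozygous library. In heterozygous cells 27 of 31 Hox genes were at most 0.5-fold of the level in other cells, where 27.8% of all genes were. Those other cells include the tailbud-like ones, which held 758 of their 2012 UMIs of groups 9 to 13. The erythroid-like count was not repeated without them. A Hox UMI was found in 31.2% (25.2 to 37.8) and 23.7% (16.2 to 32.6) of thinned cells, and in 56.7% and 50.4% before thinning, at median depths of 14590.5 and 18626 UMIs. Of 50 heterozygous cells with groups 9 to 13 after thinning, 12 also had groups 5 to 8 (24.0%), which 10 of the 174 cells without groups 9 to 13 had (5.75%). Groups 1 to 4 were found in 5 of the 50 and 11 of the 174 cells.

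Macrophage-like cells, marked by spi1b, had 55 Hox UMIs in 229 heterozygous cells, 20.5 CPM (15.5 to 26.7). The 10.7 CPM expected from free RNA is an average over named classes, and a level for this class alone was not computed. The 18 listed erythroid markers summed to 1414 CPM in this class. They summed to 677 CPM in endothelial-like, 667 CPM in progenitor-like and 1944 CPM in epidermal-like heterozygous cells. The 3 homozygous macrophage-like cells had 0 Hox UMIs. Of the 31 Hox genes 30 were at most 0.5-fold of the level elsewhere, tailbud-like cells included, where 22.5% of all genes were. Of the 31, 12 had no UMI in the class. The most counted was hoxc8a with 13 UMIs in 7 cells. A Hox UMI was present in 6.80% (3.77 to 11.1) of thinned and 16.6% of unthinned cells, at a median depth of 11772 UMIs. The homozygous cardiomyocyte-like cells, the class with the fewest, had 4 Hox UMIs in 63 cells, 8.15 CPM (2.22 to 20.9), in 0 of 44 thinned (0 to 8.04%) and 6.35% of unthinned cells at a median depth of 6383 UMIs. Thinning was a single random draw, and the mean share over all possible draws was 9.003% in macrophage-like cells. The thinned shares of tailbud-, erythroid-, neural-, epidermal- and myocyte-like cells of both libraries lay above the macrophage-like one, with intervals that did not overlap it. The same held for heterozygous endothelial-like cells.

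The progenitor- and mesenchyme-like classes were above the macrophage-like one in level but not clearly in their share of cells. Their thinned shares overlapped it, and over all draws the mean shares were 12.18% in progenitor-like and 7.41% and 8.43% in heterozygous and homozygous mesenchyme-like cells. Their levels of 35.9, 41.5 and 40.1 CPM had intervals above that of macrophage-like cells, although homozygous mesenchyme-like cells were at 27.2 CPM without the cell with most Hox UMIs. Groups 1 to 4 alone were at 20.8, 37.9 and 30.6 CPM in these classes and at 2.24 CPM in macrophage-like cells.

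Epidermal-like and myocyte-like cells also held Hox RNA. Heterozygous and homozygous epidermal-like cells had 537 CPM (472 to 608) and 517 CPM (422 to 628), and 17 of 31 heterozygous Hox genes were at least 2-fold above other cells, where 12.9% of all genes were. Myocyte-like cells, which express muscle genes such as myog, had 1063 CPM (917 to 1226) in 20 heterozygous and 678 CPM (585 to 782) in 22 homozygous cells, and 19 of 31 heterozygous Hox genes were at least 2-fold higher, where 10.3% of all genes were. Their mean paralog number was 6.95 and 6.58, and 7.76 and 7.60 without the spanning genes. Among heterozygous epidermal-like cells, 13 with a Hox UMI held 84 UMIs of cdx4 and 28 without held 2. A single homozygous epidermal-like cell held 50 of the 102 Hox UMIs of its class and a single heterozygous one 50 of 246.

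Across the 16 class and library points with at least 20 cells, the genes outside the Hox clusters whose levels were most like those of groups 1 to 4 were nrarpb (r = 0.84), her12 (r = 0.84) and meis1b (r = 0.83). For groups 5 to 8 they were cdx4 (r = 0.81), pax8 (r = 0.81) and crabp2b (r = 0.78), and for groups 9 to 13 apoc1 (r = 0.85), crabp2b (r = 0.83) and cdx4 (r = 0.83). These are Pearson correlations of log2(CPM + 1). The points share libraries and clusters, and cdx4, apoc1 and her12 are among the markers that named the tailbud and neural classes.

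Of 60 listed cofactors and regulators, 55 were in the gene list. Besides the tailbud markers cdx4, ta and wnt8a, retinoic acid genes were the largest group at least 2-fold higher in tailbud-like cells of each library. The receptor raraa was at 252 CPM against 19.0 CPM in heterozygous and 126 CPM against 12.1 CPM in homozygous cells. The enzyme aldh1a2 was 7.99-fold and 20.6-fold higher, and the cofactors meis1b (2.52-fold and 5.27-fold) and meis2b (6.27-fold and 2.54-fold) were higher as well. Of the hindbrain and anterior factors 5 of 8 were at most 0.5-fold in heterozygous cells, with pitx3, otx1a and egr2b at 0 UMIs, and 5 of 6 in homozygous cells, while mafba was 3.32-fold higher in heterozygous cells. Retinoic acid genes at least 2-fold higher were 6 of 8 in heterozygous and 5 of 8 in homozygous cells, with 1 of 8 at most 0.5-fold in each. Of the other axial regulators, the group that holds ta and wnt8a, 4 of 4 and 3 of 3 were at least 2-fold higher. Among Pbx and Meis cofactors, 3 of 11 passed 2-fold upward and 2 of 11 downward in heterozygous cells, and 3 of 10 and 4 of 10 did in homozygous cells. Of all genes 16.1% and 14.7% were at least 2-fold higher and 26.8% and 22.2% at most 0.5-fold. These genes took part in the clustering, so the counts describe the classes.

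Between the libraries as a whole, Hox levels differed little. The homozygous over heterozygous ratio was 1.14 (1.09 to 1.204), with 0.98 (0.88 to 1.098) for groups 1 to 4, 1.01 (0.91 to 1.105) for groups 5 to 8 and 1.34 (1.24 to 1.44) for groups 9 to 13. The largest single ratios were those of hoxd12a (57 heterozygous and 87 homozygous UMIs, 4.11-fold, 2.91 to 5.85), hoxa13a (13 and 17 UMIs, 3.52-fold) and hoxc11b (10 and 10 UMIs, 2.69-fold), all posterior, and of hoxb5b (54 and 50 UMIs, 2.49-fold). The only gene at most 0.5-fold was hoxc8a, with 92 and 17 UMIs and a ratio of 0.498 (0.278 to 0.841). In total 4 of 34 Hox genes were at least 2-fold higher and 1 at most 0.5-fold, where 17.8% of all genes passed either limit, so the Hox share was near that of all genes.

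The libraries differed in cell makeup: endothelial-, progenitor- and macrophage-like cells numbered 375, 182 and 229 with the heterozygous and 1, 3 and 3 with the homozygous genotype, while tailbud-like cells were 2.43% and 5.71%. If the heterozygous level of each class is weighted by the homozygous makeup, the Hox level is 384 CPM, 1.29 times the observed heterozygous value, and the observed homozygous level is 0.89 of it. Levels within each class, which do not depend on its number of cells, are given below.

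Within tailbud-like cells the libraries were near each other. The ratio was 1.05 (0.97 to 1.14) for all Hox genes, 1.004 (0.82 to 1.23) for groups 1 to 4, 1.09 (0.93 to 1.29) for groups 5 to 8 and 1.04 (0.94 to 1.16) for groups 9 to 13. The total ratio was 0.91 without the 10 heterozygous and 3 homozygous cells that lack the 6 tailbud markers. Of 26 Hox genes 2 were at least 2-fold higher and 1 at most 0.5-fold, where 10.8% of all genes passed either limit. They were hoxb6a with 12 heterozygous and 31 homozygous UMIs (2.76-fold, 1.38 to 5.90), hoxd12a with 38 and 75 UMIs (2.11-fold, 1.41 to 3.202) and hoxc8a with 29 and 12 UMIs (0.44, 0.20 to 0.89). Without the cells that lack the markers the ratio of hoxb6a was 1.05. Of the regulators, aldh1a2 had 9 and 32 UMIs (3.80-fold, 1.77 to 9.05), rdh10a, which makes retinal, 41 and 9 UMIs, and mafba 30 and 0 UMIs.

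**Figure D5:**
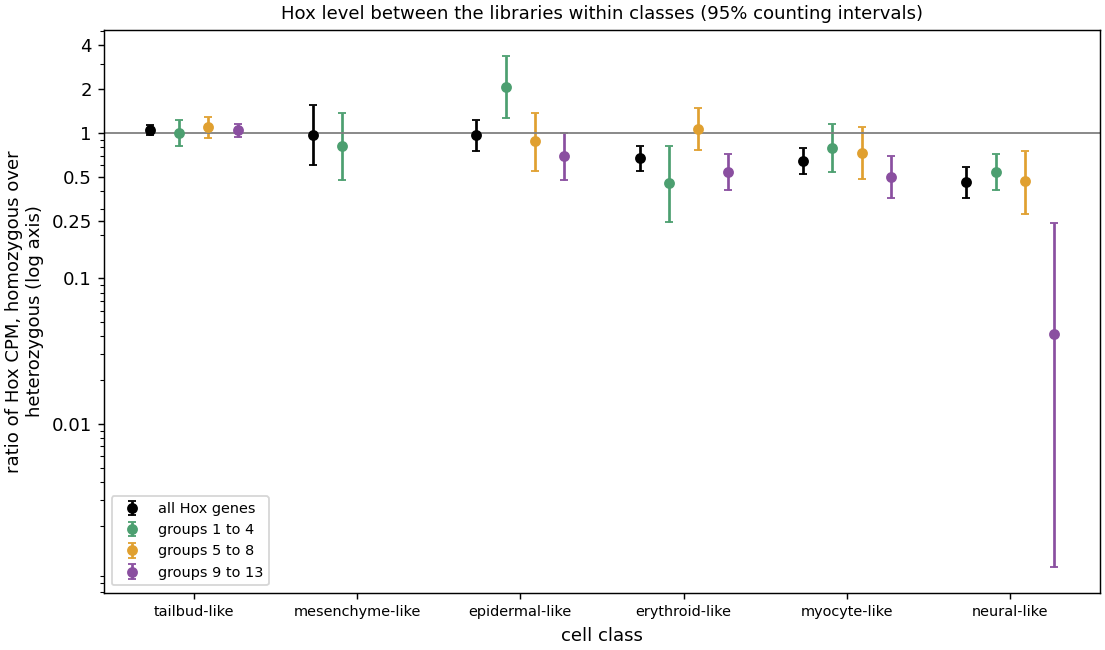
Ratio of homozygous over heterozygous Hox CPM (log axis) for all Hox genes and for each paralog band within classes of at least 20 cells in both libraries, with exact 95% counting intervals, and bands with fewer than 20 UMIs left out. Tailbud-like values lie around 1, and the neural-like value of groups 9 to 13 (1 against 58 UMIs) is the lowest.

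Erythroid-like cells had a lower Hox level in the homozygous library, at 0.67 (0.55 to 0.81). Groups 9 to 13 were at 0.54 (0.40 to 0.71), groups 1 to 4 at 0.46 (0.24 to 0.81) and groups 5 to 8 at 1.07 (0.77 to 1.49). The gene hoxd9a had 41 heterozygous and 6 homozygous UMIs (0.23, 0.08 to 0.53), hoxc3a 24 and 7 UMIs (0.45, 0.16 to 1.07) and hoxb6a 10 and 18 UMIs (2.77-fold, 1.21 to 6.72). With these, 1 of 7 Hox genes was at least 2-fold higher and 2 at most 0.5-fold, where 8.8% of all genes passed either limit. The result depended on which cells were called erythroid-like: clustering without regression on depth and mitochondrial share left 130 heterozygous and 93 homozygous such cells with 43.6 and 45.8 CPM, and a ratio of 1.05.

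Neural-like cells had the lowest ratio of the compared classes, 0.46 (0.36 to 0.58). Groups 1 to 4 were at 0.54 (0.41 to 0.72) and groups 5 to 8 at 0.47 (0.28 to 0.75), and groups 9 to 13 had 58 heterozygous UMIs and 1 homozygous UMI (0.04, 0.001 to 0.24). The genes hoxb7a and hoxc3a had 36 and 27 heterozygous UMIs and none in the homozygous library. In all 0 of 9 Hox genes were at least 2-fold higher and 4 at most 0.5-fold, where 13.8% of all genes passed either limit, and the other 2 of them were hoxb3a at 0.45 (0.23 to 0.83) and hoxa4a at 0.41 (0.20 to 0.76). The homozygous value comes from 23 cells, 1 of which held 29 of the 84 Hox UMIs, and cdx4 was counted at 56 and 0 UMIs in the same classes. The forebrain gene dlx1a also had 96 heterozygous and 0 homozygous UMIs in the class. The part of such differences in neural subtypes in the ratio was not tested.

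In mesenchyme-like cells the ratio was 0.97 (0.60 to 1.57), and no Hox gene reached 20 UMIs over both libraries. Epidermal-like cells had a ratio of 0.96 (0.76 to 1.22), with groups 1 to 4 at 2.08 (1.27 to 3.39) and groups 9 to 13 at 0.69 (0.47 to 0.99), and 2 of 6 Hox genes were at most 0.5-fold, where 18.7% of all genes passed either limit. Without the homozygous cell that held 50 UMIs and its heterozygous counterpart the ratio was 0.65. Myocyte-like cells had a ratio of 0.64 (0.52 to 0.78) and 0.50 (0.36 to 0.69) for groups 9 to 13. In them 2 of 7 Hox genes were at most 0.5-fold, where 14.8% of all genes passed either limit: hoxb10a with 19 heterozygous and 11 homozygous UMIs (0.37, 0.16 to 0.81) and hoxb9a with 14 and 9 UMIs (0.41, 0.16 to 1.01). Heterozygous myocyte-like cells held a median of 7947 UMIs and homozygous ones 14156.5 UMIs.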

How the data were processed

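GFP-positive cells of 1 heterozygous and 1 homozygous library were counted by the authors with Cell Ranger (2.0.2 in the submitters' processing notes) against GRCz10, and the deposited values are raw UMI counts per gene and barcode, without filtering or normalization. The annotation was not given in the sources used here. From these counts, barcodes were filtered as stated, genes in at least 3 cells were clustered with Seurat 5.3.0 in R 4.3.3 (normalization to 10000, regression of UMIs and mitochondrial share, 13 components, 30 neighbours, SLM, resolution 1.2, Hox genes left out), and tables were computed in Python 3.11.15 with numpy 2.4.6, scipy 1.17.1, pandas 2.3.3 and matplotlib 3.10.9. The resolution was the lowest at which tailbud and cardiomyocyte markers named different clusters. A cluster was named from 3 or more of 183 listed markers at 2-fold or more. It remained unnamed if markers of another class were mixed in at 4-fold, or if more of its leading genes were markers of another class. Of 16 clusters 3 remained unnamed (304 heterozygous and 107 homozygous cells with 16.7% and 16.0% of the Hox UMIs). Clusters 3 and 6 had fewer than 3 markers, and cluster 10 had leading genes of another class. No doublet caller was run, and only the limit of 3500 genes acts on doublets.

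CPM is the summed count per 1000000 UMIs. Each class other than the tailbud-like one was compared with all other kept cells of its library, tailbud-like cells included. Intervals are exact Poisson, conditional binomial or Clopper-Pearson intervals at 95%, and those of mean paralog numbers are normal approximations over UMIs. Folds were given for genes with at least 20 UMIs over both sides, with a fold of 2 in place of a call, and the libraries were compared in classes that reached 20 cells in each. The Hox genes named were up to 5 at each end of a comparison, the leading genes of each paralog group, and listed regulators past 2-fold, plus markers and cells chosen after their values were seen. Medians of log2 ratios set genes at 0 to 3 counts. The weighting by class makeup uses the homozygous makeup, since 3 heterozygous classes have fewer than 20 homozygous cells. Empty droplets are barcodes of 1 to 100 UMIs, and the free-RNA share rests on 14 hemoglobin genes counted in named classes other than the erythroid one. All 48 Hox genes matched RefSeq and 47 the gene-name table. The Hox genes, lists and comparisons were chosen with earlier results of these data known.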

Additional observations from a re-analysis of the deposited data

Results flagged for a closer look

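Hox UMIs were also found in barcodes outside the kept cells. Barcodes with more than 100 and fewer than 2500 UMIs held 291 Hox CPM (255 to 331) for the heterozygous and 364 CPM (285 to 457) for the homozygous library, where empty droplets held 249 CPM (222 to 278) and 265 CPM (228 to 306). The 9 heterozygous barcodes with more than 3500 genes held 612 CPM (518 to 717), and the 2 homozygous ones 82.2 CPM (30.2 to 179). These barcodes entered no comparison.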

How the results depend on the processing

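Of the main results under the alternatives, 234 values stayed within counting error or 1.5 times a count, 55 moved and 1 was labelled reversed. Of the values for single genes, shares and paralog numbers 458 stayed and 60 moved. Only a ratio whose main interval left out 1 could be labelled reversed, so a changed order of classes counts as moved. With clusters at resolution 1.5 none of the 32 main values moved, and these are among the 234. The classes were nearly the same there, with 375 endothelial-like and 181 progenitor-like heterozygous cells. This setting therefore says little about how the values depend on clustering. At resolution 0.6 no cluster was tailbud-like, so that class has no value there. The runs without a UMI minimum and with a minimum of 5000 UMIs used resolution 1.5 in place of 1.2, so resolution changed with the filter.

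The one value labelled reversed was the homozygous over heterozygous Hox ratio in erythroid-like cells, 1.05 without regression. The levels were then 43.6 CPM in heterozygous and 45.8 CPM in homozygous cells, with 0 Hox genes past 2-fold. Fewer cells were then called erythroid-like. Other changes of direction carry the label moved. Without a UMI minimum heterozygous progenitor-like cells stood above endothelial-like ones, the opposite of the main order. The library ratio of tailbud-like cells, 1.05 in the main run with an interval that held 1, fell below 1 in some alternatives.

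Without a UMI minimum the classes were regrouped: tailbud-like cells had 2213 and 2569 CPM, heterozygous endothelial-like cells 197, progenitor-like 401, mesenchyme-like 67.6, neural-like 592 and epidermal-like 274 CPM (homozygous 34.3), tailbud-like ratios over other cells were 10.5 and 18.8, and the homozygous over heterozygous ratio was 1.16 in tailbud-like cells, with 8 genes past 2-fold, and 0.125 in epidermal-like cells. With a minimum of 5000 UMIs heterozygous tailbud-like cells had 3977 CPM, endothelial-like 513 and epidermal-like 617 CPM, the tailbud-like ratio was 17.3, and the ratio between libraries was 0.88 in tailbud-like cells and 0.80 at the homozygous makeup. At resolution 0.6 heterozygous endothelial-like cells had 286 CPM, the level of cluster 1 alone, and the ratio at the homozygous makeup was 0.95. With Hox genes kept in the clustering heterozygous tailbud-like cells had 3986 CPM (17.7-fold over others) and endothelial-like cells 430 CPM, and the library ratios were 0.90 in tailbud-like cells and 0.82 at the homozygous makeup. After subtraction of the empty-droplet profile, with negative remainders of single genes left out, heterozygous macrophage-like cells had 13.9 CPM. Leaving these out gives a higher sum than plain subtraction would.

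With equal weight per cell heterozygous endothelial-like cells had 425 CPM, erythroid-like 116 and epidermal-like 405 CPM (homozygous 341), the heterozygous tailbud-like ratio was 13.8, the ratio at the homozygous makeup 0.94, and 5 Hox genes were past 2-fold in tailbud-like cells. Without the cell with most Hox UMIs of each class, homozygous mesenchyme-like cells had 27.2 CPM, neural-like 167, epidermal-like 289 (heterozygous 447) and myocyte-like 575 CPM, the homozygous tailbud-like ratio was 26.4, the library ratios were 1.08 over all cells, 0.34 in neural-like and 0.65 in epidermal-like cells, and 3 Hox genes were past 2-fold over all cells. At 50 UMIs per gene the Hox genes past 2-fold between libraries were 3 over all cells, 1 in tailbud-like, 0 in erythroid-like and 2 in neural-like cells, as fewer genes were compared.

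Chosen after seeing the data, leaving out tailbud-like cells without 6 tailbud markers gave 4032 CPM in heterozygous cells, 17.5-fold over others, a library ratio of 0.91 and 1 gene past 2-fold. Leaving out the 4 spanning genes raised the mean paralog number in most classes, by the removal of low-numbered genes, and the deeper erythroid-like cluster alone moved no main value. Except where stated, the cause was not tested.

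Each library is a single sample, so counting intervals leave out the variation between embryos and sorts. Most classes hold under 100 cells, and few cells carry most Hox UMIs in several. Genes under 20 UMIs give no usable fold. No paired analysis was possible because each genotype has 1 library.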

Other observations

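The 3 unnamed clusters differed in their Hox genes. Cluster 3, led by adgrg11, atp2b2 and gadd45aa, was at 352 CPM (327 to 379) in the heterozygous and 251 CPM (222 to 283) in the homozygous library, a ratio of 0.71 (0.62 to 0.82). Its UMIs were mostly posterior, with 58.7% and 52.8% in groups 9 to 13 and a mean paralog number of 8.18 and 8.10. The hoxba, hoxda and hoxab clusters supplied 34.3%, 24.6% and 20.5% of its heterozygous Hox UMIs. Cluster 6 was at 182 and 373 CPM, a ratio of 2.05 (1.47 to 2.83), with 44.5% and 44.8% in groups 9 to 13 and a median depth of 4620 and 3355 UMIs. Cluster 10 had 11 and 19 Hox UMIs, and 18 of the 19 homozygous ones were in a single cell.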
